A study of Rattus norvegicus with 11 samples.

Results

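The genes described here are 6 genes used to recognise the glucagon-secreting alpha cells of pancreatic islets, apart from the glucagon gene itself: the transcription factor genes Irx1, Irx2 and Pou3f4, and the product genes Ttr, Gc and Dpp4. They were chosen by symbol from the gene-level table, and all 6 of 6 were measured, each by 1 probe, among 14324 genes with a single symbol. The samples were islets of 13-week-old female Sprague-Dawley rats, hybridised to 1-colour Affymetrix Rat Gene ST arrays, and the study compared the islet transcripts of daughters by the diet of their father. The HFD-father daughters (5 arrays) had fathers fed a high-fat pellet diet with 43% as fat, and the chow-father daughters (6 arrays) had fathers fed standard chow with 9% as fat. Every father was 15 weeks old when paired with a female on chow, and every daughter was weaned onto chow at 3 weeks, so none ate the high-fat diet herself. Per the labels, the HFD-father daughters were glucose intolerant with a weaker insulin response to glucose, while their body weight did not differ. The labels do not say whether the arrays of a group stand for separate rats, litters or fathers, so p-values measure the spread between these arrays only, which may be in part technical.

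Alpha cells release glucagon when blood glucose is low, and raise glucose output by the liver. Their identity rests on transcription factors that are switched on as endocrine cells form: Irx1 and Irx2 belong to the Iroquois homeobox family, and Pou3f4 (Brn4) is a POU homeodomain factor that activates the glucagon promoter. Ttr encodes transthyretin, a carrier of thyroid hormone and of retinol-binding protein, and Gc encodes the vitamin D binding protein. Both are made mainly by the liver and are also enriched in alpha cells of rodent islets. Dpp4 encodes the surface peptidase that cleaves the incretin hormones GLP-1 and GIP, and it is found on many epithelial, endothelial and T cells besides islet cells. In RNA of whole islets, fewer alpha cells and less RNA per alpha cell cannot be told apart.

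All values are log2 signals normalised by the authors. Array medians lay between 6.137 and 6.202, and correlations between pairs of arrays between 0.9869 and 0.9950. By the 2 blocks of their sample numbers, the arrays fell into a first run of 8 (4 HFD-father and 4 chow-father) and a second run of 3 (1 HFD-father and 2 chow-father), each of which had been centred probe by probe. The array HFD-father 1 stood apart in lymphocyte markers (mean of 9 markers 1.21 above the mean of all arrays, against -0.29 to 0.14 on the other 10 arrays), and chow-father 4 in acinar markers (mean of 12 markers -0.77, against -0.27 to 0.33). Arrays have no read depth, and their number limits the precision.

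The alpha cell genes lay at overlapping levels in islets of HFD-father and chow-father daughters. None of the 6 passed limma's test at an adjusted p of 0.05, none had an unadjusted p under 0.05, and in none did the groups fail to overlap. Over all 27342 probes limma called 0 (0%), and no adjusted p lay below 0.316. Without adjustment, 1182 of 14324 genes (8.25%) had p under 0.05, made up of 5.28% of genes lower and 2.97% higher in HFD-father islets, and the groups did not overlap in 0.887% of genes. Of the 6 genes, 5 averaged lower and 1 (Gc) higher in HFD-father islets, with a median difference of -0.09, while 48.1% of all genes averaged lower, with a median of 0.00. The share of lower genes moved with the level of the probe: it was 71% among genes within 0.5 of the level of Dpp4, 64.1% around Ttr, 58.8% around Irx1, 56.4% around Pou3f4, 47.6% around Gc and 33.8% around Irx2. A count of 5 of 6 was therefore not read as a shift of the alpha cell genes.

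**Figure D1:**
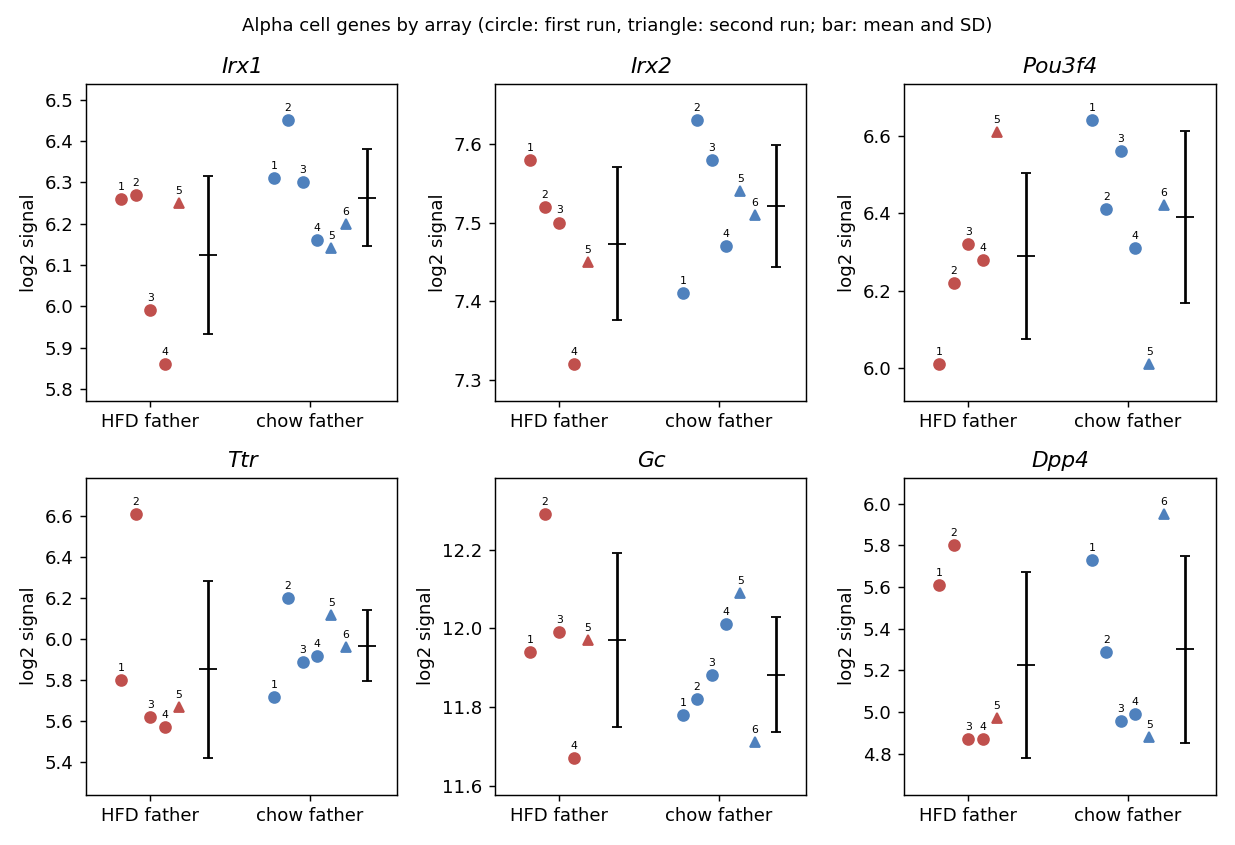
Log2 signal of the 6 alpha cell genes on each array, HFD-father arrays in red on the left and chow-father arrays in blue on the right of each panel, numbered by replicate, with circles for the first run, triangles for the second, and bars for the mean and SD. The groups overlap in every panel, Ttr is highest in HFD-father 2 (6.61), and Dpp4 lies between 5.61 and 5.95 on 2 arrays of each group.

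Irx1 (probe 10793243) had the lowest unadjusted p of the 6 genes. Its log2 signal was 6.26, 6.27, 5.99, 5.86 and 6.25 in HFD-father 1 to 5, against 6.31, 6.45, 6.30, 6.16, 6.14 and 6.20 in chow-father 1 to 6. Only HFD-father 3 and 4 lay below every chow-father array, and the other 3 HFD-father arrays lay inside the chow-father range. The means were 6.125 ± 0.191 (SD, n = 5) in HFD-father and 6.263 ± 0.117 (SD, n = 6) in chow-father islets. HFD-father minus chow-father was -0.14 ± 0.09 (SE; 95% interval -0.33 to 0.05; limma adjusted p = 0.652). The first run gave -0.22 and the second 0.08, where the HFD-father arm is a single array, and leaving out HFD-father 4 gave -0.07.

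Irx2 (probe 10796845), the other Iroquois factor of alpha cells, was the steadiest of the 6 genes. Its signal was 7.58, 7.52, 7.50, 7.32 and 7.45 in HFD-father 1 to 5, against 7.41, 7.63, 7.58, 7.47, 7.54 and 7.51 in chow-father 1 to 6. HFD-father 4 held the lowest value, as it did for Irx1, and the rest of the HFD-father arrays lay within the chow-father range. Its mean was 7.473 ± 0.097 (SD, n = 5) in HFD-father and 7.521 ± 0.078 (SD, n = 6) in chow-father islets, which differed by -0.05 ± 0.06 (SE; 95% interval -0.18 to 0.08; limma adjusted p = 0.831). As a fold on the array's scale this is 0.97, with an interval of 0.89 to 1.06. The first run gave -0.04 and the second -0.07. Of the 2639 genes within 0.5 of its level, 26.3% had a lower SD over the 11 arrays.

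Irx1 and Irx2 lie on rat chromosome 1 with 0 annotated protein-coding genes between them (RefSeq, GRCr8). Their r of 0.67 over arrays was the highest of the 15 pairs among the 6 genes, but did not pass (two-sided permutation, adjusted p = 0.34). The 250 bases before their annotated starts are shown because of this pair, with every CG dinucleotide in capitals. The Irx1 window is at chr1:33122872-33123121 on the plus strand and the Irx2 window at chr1:32494931-32495180 on the minus strand, both printed 5′ to 3′ in the direction of transcription.
Irx1: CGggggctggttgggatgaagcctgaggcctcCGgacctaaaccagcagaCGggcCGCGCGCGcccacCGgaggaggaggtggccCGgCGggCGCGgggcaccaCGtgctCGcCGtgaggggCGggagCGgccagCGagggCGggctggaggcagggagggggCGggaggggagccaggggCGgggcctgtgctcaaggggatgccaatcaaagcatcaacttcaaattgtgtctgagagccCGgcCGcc
Irx2: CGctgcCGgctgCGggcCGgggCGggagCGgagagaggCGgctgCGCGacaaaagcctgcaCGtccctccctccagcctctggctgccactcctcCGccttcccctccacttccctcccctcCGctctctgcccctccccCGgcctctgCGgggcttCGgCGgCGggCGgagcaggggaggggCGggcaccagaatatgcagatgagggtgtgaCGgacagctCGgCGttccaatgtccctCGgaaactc
Each held 23 CG dinucleotides, more than 87.7% of 33465 promoter windows of the same length in the RefSeq table, with a GC content of 72.8% for Irx1 and 71.6% for Irx2, against a median of 51.2% over all windows.

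Pou3f4 (probe 10934680), on the X chromosome, varied more between arrays than between groups. Its signal was 6.01, 6.22, 6.32, 6.28 and 6.61 in HFD-father 1 to 5, against 6.64, 6.41, 6.56, 6.31, 6.01 and 6.42 in chow-father 1 to 6. Each group held an array at 6.01, and the highest arrays, at 6.61 in HFD-father 5 and 6.64 in chow-father 1, were also 1 of each group. The means were 6.289 ± 0.214 (SD, n = 5) in HFD-father and 6.391 ± 0.222 (SD, n = 6) in chow-father islets, with -0.10 ± 0.12 (SE; 95% interval -0.36 to 0.15; limma adjusted p = 0.818) between them. The runs differed in direction, at -0.27 in the first and 0.39 in the second.

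Ttr (probe 10800426), the transthyretin gene, had 1 array far above the rest of its group. Its signal was 5.80, 6.61, 5.62, 5.57 and 5.67 in HFD-father 1 to 5, against 5.72, 6.20, 5.89, 5.92, 6.12 and 5.96 in chow-father 1 to 6. HFD-father 2 was the highest of all 11 arrays, while HFD-father 3, 4 and 5 were the lowest. The SD was 0.433 (n = 5) in HFD-father and 0.172 (n = 6) in chow-father islets around means of 5.853 and 5.969. The groups differed by -0.12 ± 0.16 (SE; 95% interval -0.47 to 0.24; limma adjusted p = 0.858). Without HFD-father 2 the value was -0.31 (adjusted p = 0.426), which also did not pass. The first run gave -0.04 and the second -0.37. Hepatocytes are the main makers of transthyretin elsewhere in the body. In HFD-father 2 the mean of 6 hepatocyte markers was 0.03 above the mean of all arrays. It ran from -0.38 to 0.17 on the other HFD-father arrays and from -0.22 to 0.47 on the chow-father arrays. Alb varied most of the 6 (from 4.835 to 8.786), and the Tat and Ahsg probes lay above only 10.9% and 22.4% of probes. The part of hepatocyte transcripts in the Ttr value was not tested.

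Gc (probe 10771853), the vitamin D binding protein gene, was read by a bright probe, and its HFD-father arrays spread to both sides of the chow-father arrays. Its signal was 11.94, 12.29, 11.99, 11.67 and 11.97 in HFD-father 1 to 5, against 11.78, 11.82, 11.88, 12.01, 12.09 and 11.71 in chow-father 1 to 6. The highest and the lowest value were both in HFD-father arrays, numbers 2 and 4. The means were 11.970 ± 0.222 (SD, n = 5) in HFD-father and 11.882 ± 0.146 (SD, n = 6) in chow-father islets. The groups differed by 0.09 ± 0.10 (SE; 95% interval -0.13 to 0.31; limma adjusted p = 0.819). The first run gave 0.10 and the second 0.07, and leaving out HFD-father 2 gave 0.01. Of all probes 99.2% had a lower mean, and so bright a probe can understate a difference in abundance.

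Ttr and Gc, the genes of the 2 secreted carriers, gave the next highest correlation among the 6 genes (r = 0.61). It did not pass (two-sided permutation, adjusted p = 0.34), and r was -0.06 without the 2 arrays farthest from the median of Ttr. The bases before the starts of Ttr and Gc are shown for comparison with those of the Iroquois pair, again with CG dinucleotides in capitals. The Ttr window is at chr18:12218508-12218757 and the Gc window at chr14:18916005-18916254 (GRCr8), both on the plus strand.
Ttr: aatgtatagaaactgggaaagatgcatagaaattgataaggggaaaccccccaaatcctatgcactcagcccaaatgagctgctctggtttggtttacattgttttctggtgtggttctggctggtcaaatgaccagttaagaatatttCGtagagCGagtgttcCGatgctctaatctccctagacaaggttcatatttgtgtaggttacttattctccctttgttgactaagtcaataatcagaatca
Gc: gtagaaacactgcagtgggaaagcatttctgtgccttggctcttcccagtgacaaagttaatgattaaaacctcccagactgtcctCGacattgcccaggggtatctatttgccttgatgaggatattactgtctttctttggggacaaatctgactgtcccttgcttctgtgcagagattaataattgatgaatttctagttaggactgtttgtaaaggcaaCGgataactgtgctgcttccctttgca
These windows held 3 CG dinucleotides for Ttr and 2 for Gc, with a GC content of 40.4% and 43.2%, so the promoters of the carrier genes were poor in CG where those of the Iroquois genes were rich. The half-site GTTAAT, the core of the binding motif of HNF1 factors of liver and endocrine pancreas, was searched on both strands. It lay in the Gc window, 194 to 189 bases before the start, and in 6.45% of all windows, while the windows of Ttr and the other 4 genes did not hold these letters. The forkhead core TGTTTAC (in 3.22% of windows) and TATAAA (in 12.9%), also searched on both strands, lay in the window of none of the 6 genes, so no hits overlapped. A match describes the letters only, and so does the lack of a match. Sites spelled with other letters, or lying outside the printed windows, were not searched for.

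Dpp4 (probe 10845647), the incretin-degrading peptidase gene, varied most between arrays, and its high arrays were spread over both groups. Its signal was 5.61, 5.80, 4.87, 4.87 and 4.97 in HFD-father 1 to 5, against 5.73, 5.29, 4.96, 4.99, 4.88 and 5.95 in chow-father 1 to 6. Values between 5.61 and 5.95 were seen on HFD-father 1 and 2 and chow-father 1 and 6, chow-father 2 lay between, and the other 6 arrays lay between 4.87 and 4.99. Its SD over the 11 arrays was 0.426, and 97.6% of the 2286 genes within 0.5 of its level had a lower SD. The means were 5.226 ± 0.446 (SD, n = 5) in HFD-father and 5.301 ± 0.448 (SD, n = 6) in chow-father islets, with -0.07 ± 0.23 (SE; 95% interval -0.57 to 0.42; limma adjusted p = 0.946) between them. The first run gave 0.05 and the second -0.44, where the pair of chow-father arrays read 4.88 and 5.95.

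**Figure D2:**
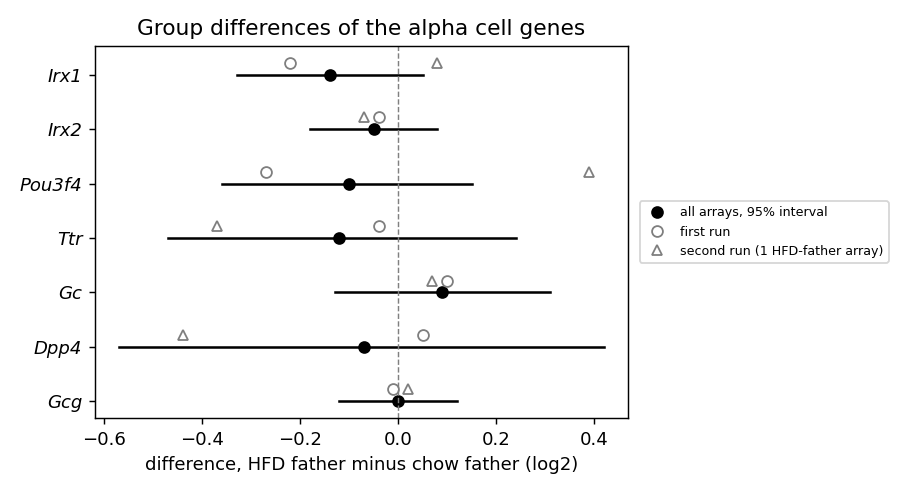
Difference between HFD-father and chow-father arrays on the log2 scale for the 6 alpha cell genes and glucagon (Gcg), as filled points with 95% intervals from limma, and within each run as open symbols. All 7 intervals include 0, and the values within runs lie on opposite sides of 0 for Irx1, Pou3f4, Dpp4 and Gcg.

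The glucagon gene Gcg, which lies next to Dpp4 on chromosome 3 with 0 protein-coding genes annotated between them, averaged 14.038 ± 0.065 (SD, n = 5) in HFD-father and 14.038 ± 0.083 (SD, n = 6) in chow-father islets. Its difference was 0.00, with an interval of -0.12 to 0.12 (adjusted p = 0.999 with limma), on a probe at the top of the scale. The Gc probe lay above 99.2% of probes and the Irx2 probe above 70.4%, and the probes of Dpp4, Ttr, Irx1 and Pou3f4 lay above 33.7%, 45.6%, 50.6% and 52.9% of probes. No test of these probes against background could be made from the values used here, and probes differ in how well they bind, so these positions neither rank the transcripts by abundance nor check the alpha cell label.

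Markers of other islet and pancreatic cells were set beside the spread of Dpp4. The 5 arrays with the highest Dpp4 had the 5 lowest means of 7 beta cell markers (-0.16 to -0.03, against 0.01 to 0.20 on the other 6 arrays). Their means of 6 ductal markers ran from 0.02 to 0.51, against -0.53 to 0.03 on the other 6. Gcg read 13.90, 13.94, 14.01, 14.02 and 14.11 on these 5 arrays, against 14.02 to 14.13 on the other 6. Over 11 arrays Dpp4 gave r = -0.68 and rho = -0.65 with the beta cell mean (two-sided permutation p = 0.0193 and 0.037), and r = 0.67 and rho = 0.65 with the ductal mean (p = 0.0254 and 0.0366). Neither passed adjustment over the 66 pairs of a gene and a marker list, by r (adjusted p = 0.837 for both) or by rho. Without the 2 arrays farthest from the median of Dpp4, r was -0.78 and 0.83, and in the first run alone -0.73 and 0.73. The acinar mean gave r = 0.45 and rho = 0.45 with Dpp4 (two-sided permutation p = 0.162 and 0.165). Without the same 2 arrays its r was 0.57. The ductal mean was not tied to Dpp4 alone. With Irx1 it gave r = 0.49 and rho = 0.62 (two-sided permutation p = 0.129 and 0.048), which also did not pass adjustment. The ductal markers Krt19, Krt8, Krt18, Cftr, Muc1 and Car2 had mean signals of 6.111, 9.958, 7.830, 5.726, 8.100 and 5.891. None of these could be tested against background, and the part of ductal cells in the Dpp4 values was not tested. Between groups the ductal mean ranged from -0.33 to 0.51 in HFD-father and from -0.53 to 0.34 in chow-father arrays, and the lymphocyte mean from -0.24 to 1.21 and from -0.29 to 0.02. HFD-father 1, the array with the highest lymphocyte mean, was the fourth highest for Dpp4.

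**Figure D3:**
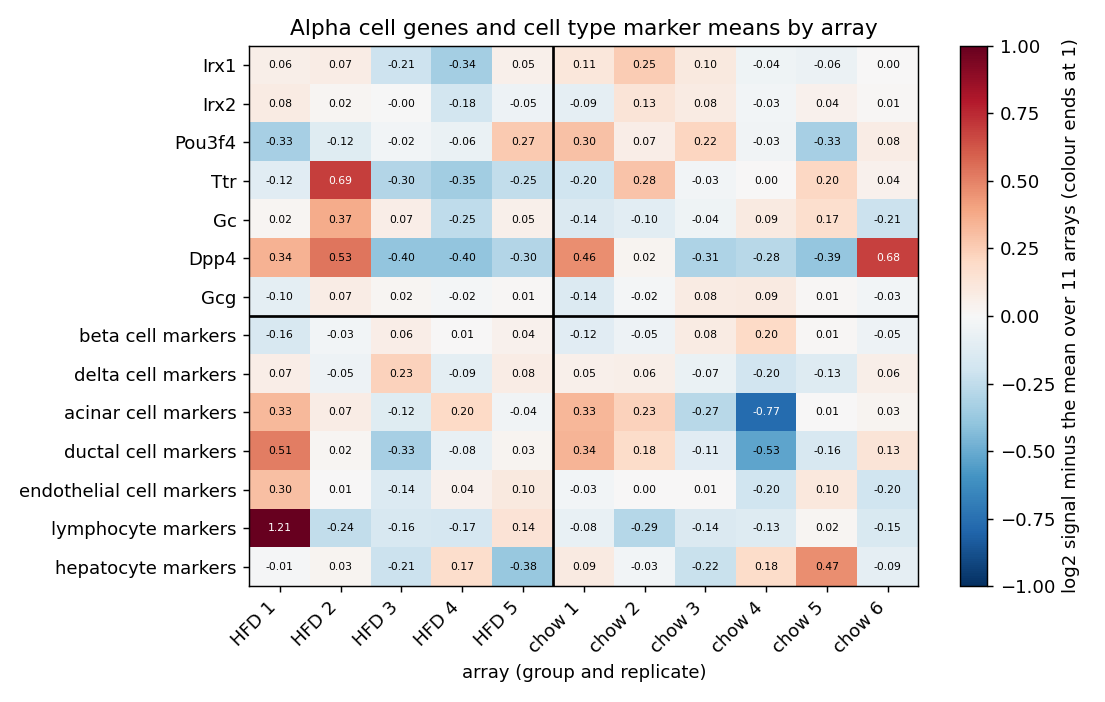
Log2 signal of the 6 alpha cell genes and Gcg, and the mean of the markers of 7 other cell types, on each array minus the mean over the 11 arrays, with HFD-father arrays left of the black line and chow-father arrays right of it. Dpp4 is highest in chow 6 and HFD 2, ductal markers in HFD 1 (0.51), and the lymphocyte mean of HFD 1 (1.21) exceeds the colour range.

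No common pattern of the 6 genes over the arrays passed a test. Pairwise r ran from -0.41 (Pou3f4 and Gc) to 0.67 (Irx1 and Irx2), and 0 of 15 pairs passed a two-sided permutation test after Benjamini-Hochberg adjustment over the 15. For Irx1 and Irx2, r was 0.67 (p = 0.0244, adjusted p = 0.34) and rho 0.46 (p = 0.153, adjusted p = 0.371). It was 0.74 in the first run and 0.41 without the 2 arrays farthest from the median of Irx1, so the size of the relation rests in part on those arrays. For Ttr and Gc, r was 0.61 (p = 0.0453, adjusted p = 0.34) and rho 0.40 (p = 0.225, adjusted p = 0.423). It was 0.72 in the first run but -0.06 without the 2 arrays farthest from the median of Ttr, so the relation rests on those arrays. Dpp4 and Gc gave r = -0.04 (p = 0.902, adjusted p = 0.902) and rho = -0.11 (p = 0.751, adjusted p = 0.756). This pair moved most with the arrays used, to 0.38 in the first run and -0.82 without the 2 arrays farthest from the median of Gc.

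The genes whose profile over the 11 arrays was most like each alpha cell gene were read from the other 14317 genes by Pearson's r, as a description with no test, since the best of so many is high by selection. For Irx1 they were Tmc4 (r = 0.963), L3hypdh (0.962) and Ppargc1a (0.896), a coactivator of mitochondrial genes. For Irx2 they were Or8i2 (0.926), C1h10orf90 (0.925) and Foxh1 (0.908), and for Pou3f4 Socs5 (0.917), Cln3 (0.901) and Senp2 (0.893). For Ttr they were Or6c33b (0.912), Jpt2 (0.881) and the adipocyte hormone gene Adipoq (0.865), and for Gc Tcl1a (0.927), Ngdn (0.918) and Cyp2e1 (0.912). For Dpp4 they were Gpat3 (0.938), a gene of triglyceride synthesis, Apob (0.925), the protein of lipoprotein particles, and Aplnr (0.910), the apelin receptor. None of these 18 genes differed between the groups past the threshold, with adjusted p-values from 0.535 to 0.997 (limma).

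Other genes used to recognise alpha cells gave no call in either direction. Of 18 listed genes 16 were measured, of which 9 averaged higher and 7 lower in HFD-father islets, with a median difference of 0.04 against 0.00 over all genes. Slc38a5, a neutral amino acid transporter that mouse alpha cells need to multiply when amino acids are high, had the lowest p. It averaged 11.751 ± 0.074 (SD, n = 5) in HFD-father and 11.558 ± 0.048 (SD, n = 6) in chow-father islets, ranging from 11.686 to 11.836 and from 11.488 to 11.612, so its groups did not overlap. The difference of 0.19 ± 0.05 (SE) did not pass over all probes (adjusted p = 0.369 with limma), and 0.887% of all genes had groups that did not overlap. Fap, a peptidase closely related to Dpp4, differed by 0.31 ± 0.11 (adjusted p = 0.463), and Plce1, a phospholipase, by 0.18 ± 0.09 (adjusted p = 0.556). For Fap the first run gave 0.12 and the second, with a single HFD-father array, 0.93. Its probe lay above 27.4% of probes. Before adjustment 2 of the 16 genes, Slc38a5 and Fap, had p under 0.05, against 8.25% of all genes. Transporters for arginine and other amino acids in alpha cells, Slc7a2 and Slc38a4, differed by -0.07 and -0.06.

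Relatives of the alpha cell transcription factors averaged lower in HFD-father islets without passing the test. All 7 measured Iroquois and POU class 3 genes had lower means, as did Irx1, Irx2 and Pou3f4, and none of these 10 passed. Among genes within 0.5 of their level, the share of lower genes was 62.6% to 71.3% for Irx3 to Irx6, Pou3f1 and Pou3f2. The share was 45% around Pou3f3, 58.8% around Irx1, 33.8% around Irx2 and 56.4% around Pou3f4. The count of 10 was not tested against these shares. The median of the 7 was -0.13, against 0.00 over all genes. Most of the 7 were read by dim probes. Those of Irx3 to Irx6, Pou3f1 and Pou3f2 lay above 17.8% (Irx4) to 47.2% (Pou3f2) of probes, and that of Pou3f3 above 60.9%. Only Pou3f3 was kept when dim probes were left out, and none of the 7 could be tested against background. Irx6 differed by -0.15 ± 0.06 (SE, adjusted p = 0.493 with limma), Irx5 by -0.19 ± 0.11 (adjusted p = 0.617) and Pou3f3 by -0.12 ± 0.07 (adjusted p = 0.623). Genes within 0.5 of the level of Irx6 had a median difference of -0.05, those around Irx5 -0.05, and those around Pou3f3 0.01. The list median was -0.11 after quantile normalization and -0.11 within the first run. Markers of some other cells averaged higher in HFD-father arrays, as did 51.9% of all genes. These were 12 of 12 acinar (median difference 0.16), 7 of 7 endothelial (0.11), 8 of 9 lymphocyte (0.23) and 5 of 7 stellate and fibroblast genes (0.04). In contrast, 5 of 7 beta cell, 5 of 6 hepatocyte and 2 of 3 PP and epsilon cell genes averaged lower. Delta, ductal, macrophage and Schwann cell genes were split evenly, and none of these markers passed. The acinar mean ranged from -0.12 to 0.33 in HFD-father and from -0.77 (chow-father 4) to 0.33 in chow-father arrays. The endothelial mean ranged from -0.14 to 0.30 and from -0.20 to 0.10. The lymphocyte mean was 1.21 in HFD-father 1 and at most 0.14 on every other array. With the acinar mean as a covariate, the median of the 7 relatives was also -0.13. The acinar mean was lowest by far on 1 array, chow-father 4, so this value cannot decide the part of acinar cells. The part of the other markers was not tested.

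Transcription factors that alpha cells share with other islet endocrine cells were measured for 8 of 12 listed genes, of which 3 averaged higher and 5 lower, with a median difference of -0.01. Rfx6 differed by -0.11 ± 0.08 (SE), Foxa1 by -0.11 ± 0.09 and Pax6, which activates the glucagon gene, by -0.06 ± 0.06. Adjusted p-values of this list were 0.722 or higher (limma). No member had an unadjusted p under 0.05.

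Genes that act with the products of Ttr, Gc and Dpp4 also gave no call. Of 9 measured carriers, transporters, receptors and enzymes of thyroid hormone and retinol, 3 averaged higher and 6 lower (median -0.07). The thyroid hormone carrier Serpina7 differed by -0.15 ± 0.08 (SE, adjusted p = 0.610 with limma), the transporter Slc16a10 by -0.09 ± 0.08 and the receptor Thrb by 0.05 ± 0.05. Of 8 measured vitamin D pathway genes, 3 averaged higher and 5 lower (median -0.03), with Cyp2r1, a 25-hydroxylase, at 0.17 ± 0.10 (adjusted p = 0.649), the receptor Vdr at -0.12 ± 0.13 (adjusted p = 0.799) and Cyp24a1, which degrades active vitamin D, at -0.06 ± 0.07 (adjusted p = 0.805). Of 12 measured genes of the Dpp4 family and the incretin axis, 6 averaged higher and 6 lower (median 0.02). Dpp6, a potassium channel partner without peptidase activity, differed by 0.19 ± 0.08 (adjusted p = 0.492) and the prolyl endopeptidase Prep by -0.07 ± 0.06 (adjusted p = 0.759). The incretin receptors Glp1r and Gipr differed by 0.00 ± 0.12 and 0.06 ± 0.15, so at the level of these transcripts neither the peptidase nor the receptors of incretins passed the test.

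**Figure D4:**
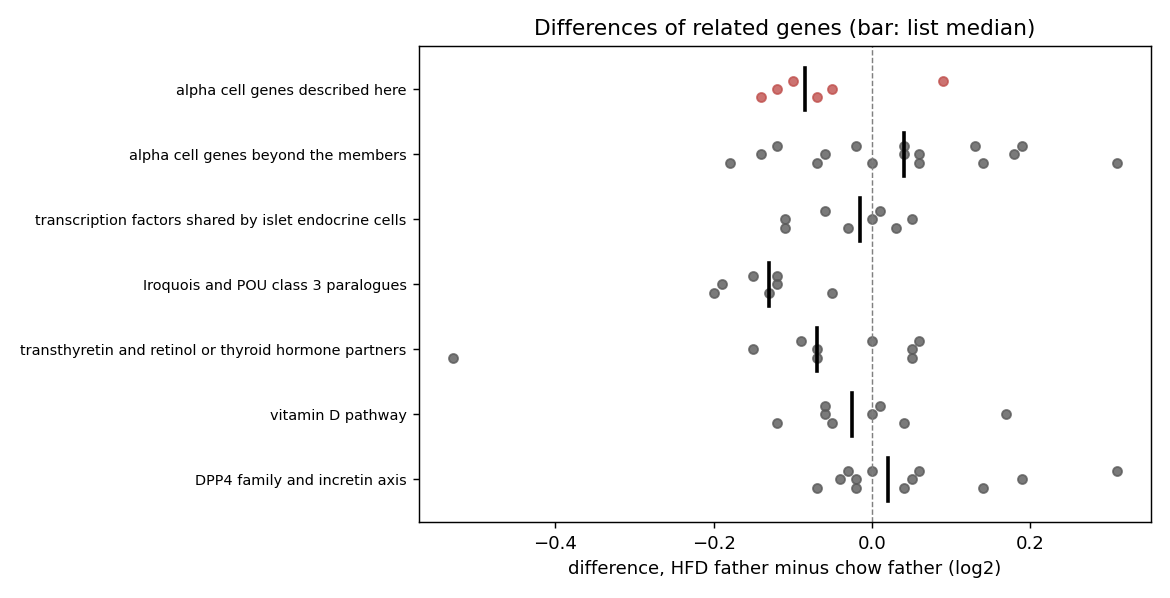
Difference between HFD-father and chow-father arrays (log2) for each of the 6 alpha cell genes (red) and for each measured gene of the 6 related lists (grey), with a black bar at each list's median. The 7 Iroquois and POU class 3 relatives all lie below 0, the medians of the other lists between -0.07 and 0.04, and the lowest point is Alb at -0.53.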

How the data were processed

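The gene-level table holds log2 signals of 27342 probes on 11 arrays, as deposited by the authors. The log2 scale was read from the values. The submitters' processing notes list MAS5 and RMA but not what each was used for, and further steps are not given in the sources used. Each probe had the same mean in both runs to within 5.83e-05 (smallest median difference of the other 164 splits into 3 and 8 arrays 0.0495), so the values had been centred per run. The platform table gave 15097 probes 1 symbol, 323 several, and 11922 were not listed. Symbols were updated through Entrez numbers to RefSeq GRCr8 for 15067 probes, and the highest-mean probe stood for each of 14324 genes. The exon-level table was not used.

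Groups were compared with limma 3.58.1 (R 4.3.3, lmFit and eBayes, no covariate, no filter), with Benjamini-Hochberg adjustment over all probes and a threshold of 0.05. HFD-father minus chow-father was also simulated, with 27342 probes and the same centring. Limma then called 84 of 100 probes changed by 0.5 and 100 of 100 changed by 1. These counts were not split by how much a probe varied, so they do not give the recovery for genes like Dpp4. Where no change was planted, p before adjustment fell under 0.05 for 6.45% of probes, and the measured data gave 8.25% of genes. Correlations used 100000 permutations (numpy 2.4.6). Figures used matplotlib 3.10.9. Promoters are from RefSeq (GRCr8), with all 6 genes matched.

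Arrays with the same number did not deviate together (r from -0.318 to 0.33 over the 5 numbers), so the numbers were not taken as pairs. The genes and lists were chosen with earlier results of these data known. Named genes are the 6, Gcg, the 3 of lowest p in each related list, and the 3 most alike per gene. Slc7a2, Slc38a4, Glp1r, Gipr and Alb, and the ductal markers, were named after their values were seen. Alternatives were a block for the run or for the replicate number, arrays of the first run only, median centring or quantile normalization, no dim probes, the mean of a gene's probes, an acinar covariate, eBayes with a trend, and each array left out.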

Additional observations from a re-analysis of the deposited data

Results flagged for a closer look

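The Ttr signal of HFD-father 2, 6.61, stood apart from the other 4 HFD-father arrays, the highest of which read 5.80. Its gap to the nearest array was 0.78 of the group's whole range, above the critical value of 0.71 for 5 samples in Dixon's test. Of the 12 groups of values examined (6 genes in 2 groups), 1 was picked out in this way, and chance picks out about 1 in 20. The same array also held the highest Gc (12.29) and the second highest Dpp4 (5.80), but not the highest Irx1, Irx2 or Pou3f4.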

How the results depend on the processing

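The count of the 6 genes called was 0 under all 20 alternatives, and the count over all probes was also 0 under each. Irx1, Irx2, Pou3f4 and Gc kept their direction under all 20, and Ttr under the 19 in which its probe was kept. With the replicate number as a block, which also leaves out chow-father 6 and changed no call, the differences were -0.15 (Irx1), -0.05 (Irx2), -0.10 (Pou3f4), -0.12 (Ttr), 0.05 (Gc) and 0.06 (Dpp4). Dpp4, near 0 in the comparison of all arrays, had the same value, 0.06, without chow-father 6 and with no block, and was 0.05 in the first run alone. With each array left out, Dpp4 ran from -0.22 to 0.06, Irx1 from -0.17 to -0.07, Irx2 from -0.08 to -0.01, Pou3f4 from -0.18 to -0.03, Ttr from -0.31 to -0.04 and Gc from 0.01 to 0.16. Gcg turned direction after median centring (0.03) and with the acinar covariate (0.03), and ran from -0.03 to 0.03 with each array left out. List medians ran from -0.17 to -0.10 for the Iroquois and POU class 3 relatives, from -0.10 to 0.02 for the thyroid hormone and retinol genes, and from -0.03 to 0.06 for the incretin genes with each array left out. The thyroid hormone and retinol median was 0.05 without dim probes. The cause of these changes was not tested. With intervals as wide as -0.57 to 0.42 (Dpp4), differences well above the median SE of 0.072 over all genes would go undetected for the genes that vary most.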

Other observations

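The albumin gene Alb, listed with the thyroid hormone carriers and with the hepatocyte markers, varied far more between arrays than Ttr or Gc, the other plasma carriers. Its signal ran from 4.835 to 8.786 over the 11 arrays, with 6.217 ± 1.128 (SD, n = 5) in HFD-father and 6.751 ± 1.129 (SD, n = 6) in chow-father islets (adjusted p = 0.805 with limma). The other hepatocyte markers Apoa2, Apoh, Fgb, Ahsg and Tat differed by -0.04, 0.04, -0.15, -0.07 and -0.13 between the groups, and none passed.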
